A study of Mus musculus with 12 samples.

Results

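Setbp1 (ENSMUSG00000024548), the mouse gene of SET binding protein 1, was 1 of the 982 genes in a table of normalized gene counts from 6DT1 cells, a mammary cancer line from an MMTV-Myc tumor of FVB/NJ mice. It was chosen by its log2 difference from the control line, as one of the larger falls in lines edited at Resf1, the gene of retroelement silencing factor 1, so its levels against the control line are given as a description without a test. The 12 libraries fall into 4 groups of 3. The sgControl line is labelled wild type with the treatment "sgScranble control", and the sg1, sg2 and sg3 lines are labelled Resf1 KO with the treatment "sgResf1 CRISPR KO", 1 guide to each line. All groups share the cell line, its MMTV-Myc origin and, per the labels, a medium with puromycin. Per the study's methods, the guides target different places of 1 large Resf1 exon, were delivered with a lentiviral Cas9 and GFP vector, and the edited lines were grown from single cells. Since the replicates of a line are separate dishes of it, p-values measure the spread between dishes, and a guide cannot be told apart from its clone. Whether the sgControl line also came from 1 cell is not given in the sources used here, and the treatment protocol in the labels describes shRNAs against human RESF1 instead of these guides. Resf1 itself was not analysed here.

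SETBP1 is a large nuclear protein that carries AT-hook motifs, which bind AT-rich DNA, and a region that binds the SET oncoprotein. SET inhibits the phosphatase PP2A, and binding by SETBP1 protects SET from cleavage. SETBP1 is itself marked for destruction through a short degron read by an SCF ubiquitin ligase. Variants in that degron are found in myeloid leukemias and cause Schinzel-Giedion syndrome, and loss of 1 gene copy causes a neurodevelopmental disorder.

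Setbp1 was highest in sgControl and lower in each edited line, with 4 levels that did not overlap. In sgControl the 3 libraries held 179.8, 137.9 and 207.8 normalized counts. In sg3 they held 72.2, 82.8 and 85.8. The sg3 libraries were close to each other, and all lay below the lowest control library. In sg2 the values were 19.9, 23.9 and 31.4. In sg1 they were 11.7, 4.85 and 13.3, the lowest of the 4 lines. The order from high to low was thus sgControl, sg3, sg2 and sg1, and no library of a line crossed into the range of the next line.

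**Figure D1:**
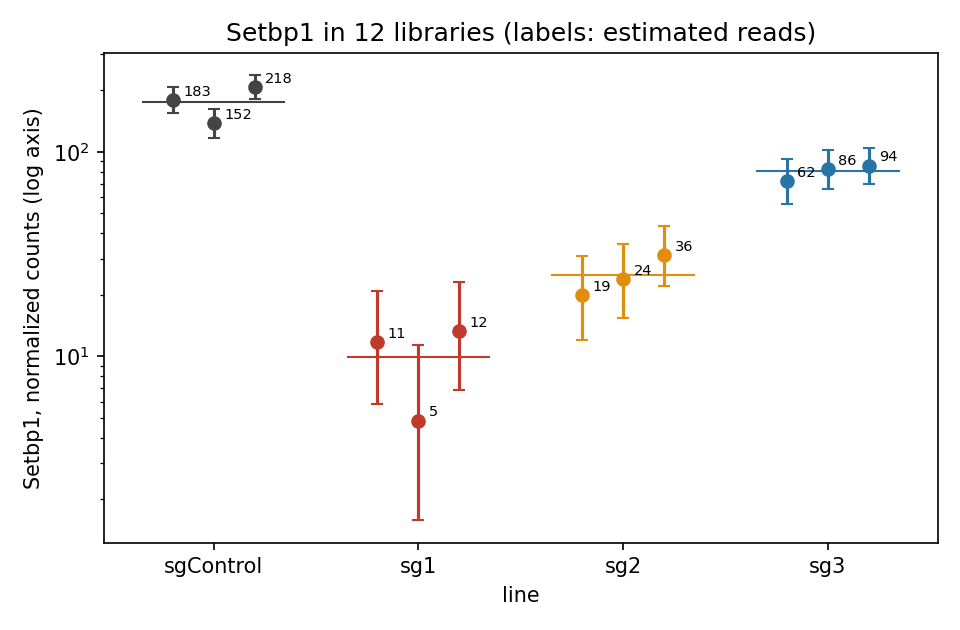
Setbp1 level in each library (y axis, normalized counts on a log scale) by line (x axis). Points are libraries labelled with their estimated reads, bars are exact 95% Poisson intervals and horizontal lines are line means. The sg1 libraries, at 4.85 to 13.3, sit below the sg2 libraries at 19.9 to 31.4, these below sg3 at 72.2 to 85.8, and these below sgControl at 137.9 to 207.8.

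Group means were 175.2 ± 35.2 normalized counts in sgControl, 80.2 ± 7.15 in sg3, 25.04 ± 5.85 in sg2 and 9.93 ± 4.47 in sg1 (SD, n = 3). Setbp1 thus stood at 45.8% of the control mean in sg3, 14.3% in sg2 and 5.67% in sg1, or 2.18-fold, 7.00-fold and 17.6-fold below it. After adding 1 and taking log2, a scale on which falls of low genes appear smaller, the differences from sgControl were -1.10 in sg3, -2.76 in sg2 and -4.09 in sg1 (SE 0.29 each). By that difference Setbp1 ranked 84 from the lowest of 982 genes in sg3, 24 in sg2 and 6 in sg1. For comparison, 33.3% of genes had all sg3 libraries below the controls, 34.9% had all sg2 and 39.7% all sg1 libraries there, in a table that holds genes already chosen for a change. In these bulk samples, fewer cells with the transcript and less of it per cell cannot be told apart.

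The edited lines were then compared with each other. The choice of the gene did not use this contrast directly, but a difference between edited lines is the difference between falls of the kind that it used. These differences were also known from earlier work on the same data. Their p-values are thus not free of the choice. All 3 pairs of lines differed. The SE of each difference pools the spread of all 4 lines. Dishes of sg1 varied most (CV 45.0%, beside 8.91% in sg3), so that SE may be too small for sg1. Setbp1 was 2.52-fold higher in sg2 than in sg1, a log2 difference of 1.33 (SE 0.29, limma adjusted p = 0.000627), higher in 3 of 3 libraries. It was 3.20-fold higher in sg3 than in sg2, a log2 difference of 1.66 (SE 0.29, limma adjusted p = 0.000160). Between sg3 and sg1 the ratio was 8.08-fold and the log2 difference 2.99 (SE 0.29, limma adjusted p = 6.49e-08). The equality of the 3 edited lines had a limma adjusted p of 1.89e-07. Line differences were common in this table: 67.6% of genes passed between sg1 and sg2, 30.5% between sg2 and sg3, 65.7% between sg1 and sg3, and 75.3% in the test of all 3 lines. Called in the direction of Setbp1 were 26.7%, 13.4% and 23.2% of genes for the 3 pairs in the same order.

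By the size of these differences Setbp1 ranked 116 of 982 genes between sg1 and sg2, 71 between sg2 and sg3 and 34 between sg1 and sg3. The median absolute log2 difference over all genes was 0.34, 0.12 and 0.35 in the same order.

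**Figure D2:**
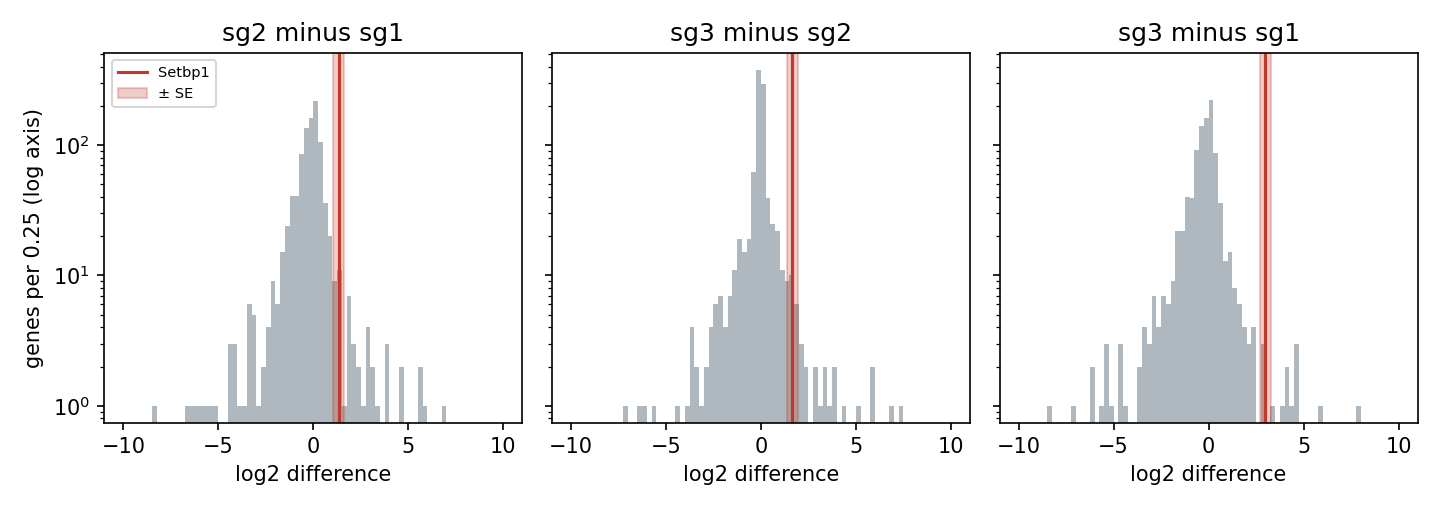
Log2 differences between edited lines for 982 genes (x axis; y axis, genes per bin on a log scale), with Setbp1 as a red line and its SE as a red band. Setbp1 lies to the right of the bulk of genes in each panel, at 1.33, 1.66 and 2.99.

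The order of the 4 lines was read from Setbp1 itself and includes the step below sgControl that chose the gene, so the number of genes that share it is a description, and other orders were not counted. In 3 of 982 genes (0.305%) all sg1 libraries lay below all sg2 libraries, these below all sg3 libraries and these below all sgControl libraries. Besides Setbp1 these were Mrpl47, a protein of the mitochondrial ribosome, and the transcript 1110038B12Rik, both named after their values were seen. Their steps were small. From the lowest line to the highest, Mrpl47 ran from 320.4 to 369.3, 386.2 to 414.5, 432.9 to 459.5 and 467.8 to 473.5 normalized counts. 1110038B12Rik ran from 1092 to 1176, 1188 to 1334, 1383 to 1454 and 1463 to 1593. Taken 1 step at a time, sg1 lay below sg2 without overlap for 29.4% of genes, and sg2 below sg3 for 17.3%.

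Both the number of reads and the spread between dishes bear on the precision of each level. The values of Setbp1 were whole multiples of 1 step per library in all 12 libraries, within 0.05 reads, so reads could be estimated for this gene. They numbered 183, 152 and 218 in sgControl, 62, 86 and 94 in sg3, 19, 24 and 36 in sg2, and 11, 5 and 12 in sg1. The sg1 level therefore rests on 28 reads in all, against 553 in sgControl. An exact 95% Poisson interval, which covers counting error only, ran from 1.57 to 11.3 normalized counts for the sg1 library with 5 reads and from 11.95 to 31.0 for the sg2 library with 19 reads. For the sg1 library with 12 reads it ran from 6.85 to 23.2, so single libraries of sg1 and sg2 overlapped within counting error while the lines differed in the test across dishes.

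Dishes of the control line varied more than counting alone gives. The Pearson chi-square of the estimated reads around the line mean, divided by its degrees of freedom, was 7.66 in sgControl, 0.589 in sg3, 1.43 in sg2 and 2.03 in sg1, where a value near 1 is what counting error gives. The coefficient of variation was 20.1% in sgControl, 8.91% in sg3, 23.3% in sg2 and 45.0% in sg1.

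Setbp1 was a weakly expressed gene of this table in every line. Per kilobase of its longest annotated transcript the mean level was 17.6 normalized counts in sgControl, 8.06 in sg3, 2.52 in sg2 and 1.00 in sg1. On this scale 12.2% of 972 genes with a known length were lower than Setbp1 in sgControl, 7.41% in sg3, 2.88% in sg2 and 0.720% in sg1. The median gene had between 182.5 and 209.2 normalized counts per kilobase.

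By the mouse annotation (GENCODE M21, GRCm38; the build behind the table is not given in the sources used here) Setbp1 is a protein-coding gene on the minus strand of chromosome 18, with 1 annotated transcript of 9953 bases in 6 exons over 359 kb. No other annotated gene overlaps it on either strand. Its span ranked 25 from the longest of 972 genes, whose median was 25.6 kb. As deposited, Setbp1 went the other way from most long genes. Of the 73 other genes that span at least 200 kb, a limit chosen after the values were seen, 57 were called higher and 5 lower in sg1, 36 and 7 in sg2, and 41 and 12 in sg3 (limma adjusted p of at most 0.05). Among all deposited genes 50.1%, 30.2% and 26.5% were called higher and 39.1%, 29.4% and 33.4% lower, and of these long genes 6.85%, 9.59% and 16.4% were called lower. Their median log2 difference was 0.45, 0.20 and 0.20, beside 0.20, -0.02 and -0.03 over all genes. After scaling to the table total the sg2 median of the long genes turned to -0.0070, with 35 of 73 above 0, while 58 of 73 still lay above the median of all genes. With the table total less its highest feature the sg2 median was 0.18, with 57 of 73 above 0.

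The study concerns sequences that can fold into G-quadruplexes, so the transcript was searched for 4 runs of GGG separated by gaps of 1 to 7 bases, on both strands. Setbp1 held 1 match on the strand of the transcript and 0 on the opposite strand. Among 58 other deposited genes with a longest transcript within 20% of its length, 41.4% held a match on the strand of the transcript, 41.4% on the opposite strand and 17.2% on both. A match describes letters only. Introns were not searched, nor were patterns with runs of 2 guanines, which the study also considers and which this search cannot find.

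On chromosome 18 the table held 21 genes, of which Setbp1 was number 18 in order. The other 20 genes of the chromosome moved in both directions. Their median log2 difference from sgControl was 0.05 for sg1, -0.14 for sg2 and -0.03 for sg3. In sg1 8 were called higher and 8 lower, in sg2 6 and 8, and in sg3 5 and 7. That makes 80%, 70% and 60% of them called, where 89.2%, 59.7% and 59.9% of the table were.

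**Figure D3:**
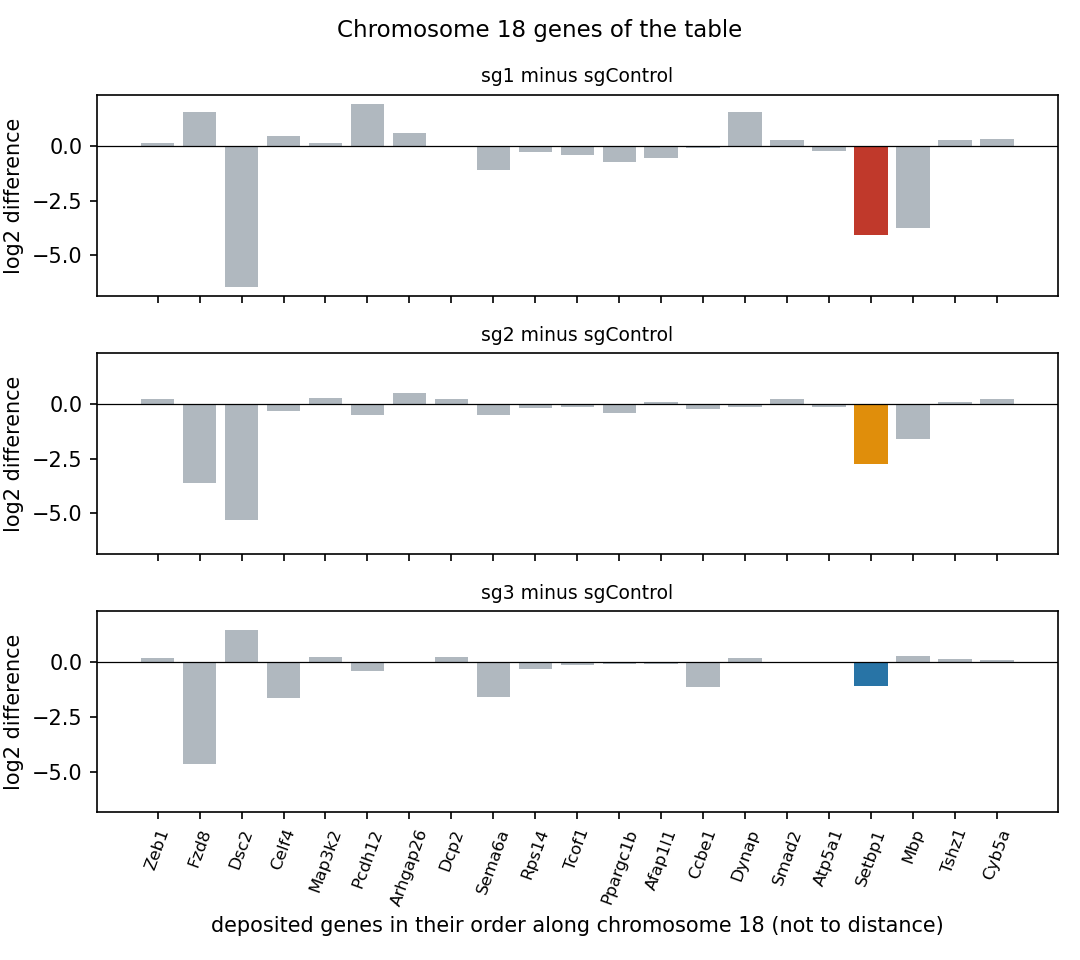
Log2 difference from sgControl (y axis) of the 21 deposited chromosome 18 genes in their order along the chromosome (x axis, not to distance), with 1 panel per edited line and Setbp1 in color. Setbp1 and the next deposited gene, Mbp, are both low in sg1 and sg2, whereas Atp5a1 before them and Tshz1 after them stay near 0. Dsc2, near the other end of the order, is lower still in sg1 and sg2, at -6.44 and -5.32.

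The next deposited gene on the distal side, Mbp (ENSMUSG00000041607), came closest to Setbp1 among the 6 nearest deposited genes. Mbp encodes myelin basic protein, a structural protein of the myelin sheath. It lies 3.37 Mb away, with 14 protein-coding genes between them that are not analysed here. Mbp had 135.6, 128.8 and 162.1 normalized counts in sgControl, 11.7, 11.6 and 6.63 in sg1, 46.0, 39.8 and 52.3 in sg2, and 161.8, 195.4 and 165.1 in sg3. Its libraries were low in sg1 and intermediate in sg2, and those of sg3 overlapped with the controls. The log2 difference from sgControl was -3.74 in sg1 (limma adjusted p = 6.49e-11), -1.61 in sg2 (limma adjusted p = 6.20e-06) and 0.29 in sg3 (limma adjusted p = 0.221), with SE 0.21. Mbp and Setbp1 thus shared the order of the edited lines, and Mbp was not low in sg3.

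The other nearby genes had smaller falls or went the other way. Atp5a1, the alpha subunit of mitochondrial ATP synthase, is the nearest deposited gene on the proximal side, 0.97 Mb away. Its log2 difference was -0.22 in sg1 (SE 0.05, limma adjusted p = 0.000672), -0.13 in sg2 (0.0389) and -0.05 in sg3 (0.349). The sg2 call was lost without sgControl replicate 1 or 2, sg1 replicate 1 or any sg2 replicate (limma adjusted p of up to 0.147). It was also lost without trend and robust estimates (0.0549). After scaling to the table total the differences in sg1, sg2 and sg3 were -0.43, -0.33 and -0.16. With that total less its highest feature they were -0.35, -0.14 and -0.02. Smad2, a signal transducer of the TGF-beta pathway, had 0.28, 0.23 and 0.02, Tshz1, a zinc finger factor, had 0.28, 0.09 and 0.14, and Cyb5a, cytochrome b5, had 0.30, 0.22 and 0.10 in sg1, sg2 and sg3. Those values of Smad2, Tshz1 and Cyb5a depend on the scaling, and after scaling to the table total the sg1 values were 0.07, 0.06 and 0.09 with none called. Dynap, which encodes a dynactin-associated protein, rose in sg1 by 1.56 on the log2 scale (SE 0.16, limma adjusted p = 1.79e-07), and its sg1 libraries at 261.9 to 284.1 normalized counts lay above all others, at 77.6 to 124.3. In sg2 and sg3 its log2 differences of -0.13 and 0.19 did not pass (limma adjusted p = 0.484 and 0.307).

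Genes linked to the biology of SETBP1 were taken from 6 lists of 98 genes: SET and PP2A, chromatin partners, reported target genes, the SKI and DACH family, AT-hook genes and, in general, SCF ubiquitin ligases. The table held 4 of them. Set (ENSMUSG00000054766), the gene of the protein that SETBP1 binds, was the only 1 of 28 genes of the SET and PP2A list. Set had 9463, 9528 and 9359 normalized counts in sgControl, 7951, 8012 and 7906 in sg1, 8930, 8806 and 9401 in sg2, and 8796, 8959 and 9440 in sg3. Its sg1 libraries lay below all others, and the sg2 and sg3 ranges overlapped with the controls. The log2 difference was -0.25 in sg1 (SE 0.04, limma adjusted p = 7.11e-05), -0.06 in sg2 (limma adjusted p = 0.214) and -0.06 in sg3 (limma adjusted p = 0.238). Between sg2 and sg1 it was 0.18 (limma adjusted p = 0.00149). These sizes depend on the scaling. After scaling to the table total Set stood at -0.46 in sg1, -0.27 in sg2 (SE 0.09, limma adjusted p = 0.00718, now called) and -0.16 in sg3, and the difference between sg2 and sg1 lost its call (0.19, limma adjusted p = 0.0552). Set in sg2 was not called with median-of-ratios scaling (-0.11, limma adjusted p = 0.0560). Nor was it with the table total less its highest feature (-0.08, limma adjusted p = 0.135). Whole reads could not be checked for Set, because its values lie far above the 100 reads for which that check was set.

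The chromatin partners gave 2 of 21 genes and the SCF list 1 of 10. Wdr5, a core subunit of the MLL histone methyltransferase complexes, ran from 1479 to 1601 normalized counts in sgControl, 1230 to 1331 in sg3, 1358 to 1472 in sg2 and 1199 to 1262 in sg1. Its log2 difference was -0.34 in sg1 (limma adjusted p = 3.46e-05), -0.13 in sg2 (0.0477) and -0.29 in sg3 (0.000446), each with SE 0.06. Mbd3, a subunit of the NuRD chromatin remodeler, had -0.14, -0.18 and -0.26 (SE 0.05; limma adjusted p = 0.0199, 0.0106 and 0.000780). Skp2, the substrate receptor of an SCF ubiquitin ligase that targets p27 and not the receptor known to read the SETBP1 degron, had -0.13, -0.35 and -0.23 (SE 0.05; limma adjusted p = 0.0303, 3.20e-05 and 0.00168). After scaling to the table total these falls were larger and all called, at -0.55, -0.34 and -0.39 for Wdr5, -0.36, -0.38 and -0.36 for Mbd3 and -0.34, -0.55 and -0.33 for Skp2 in sg1, sg2 and sg3, so that no order of the lines can be read for Mbd3. With median-of-ratios scaling the sg1 value was -0.30 for Mbd3 and -0.28 for Skp2. With the table total less its highest feature the sg3 values were -0.26 for Wdr5, -0.23 for Mbd3 and -0.20 for Skp2. These were smaller than as deposited and still called. As deposited, 4 of the 4 genes were called lower in sg1, 3 in sg2 and 3 in sg3, beside 39.1%, 29.4% and 33.4% of all deposited genes. Wdr5 in sg2 kept its call when sgControl replicate 3, sg2 replicate 2, sg3 replicate 1 or sg3 replicate 2 was left out and lost it without any other library, with a limma adjusted p of up to 0.166 without sg2 replicate 3. Mbd3 lost its call in sg1 without sgControl replicate 2 (limma adjusted p = 0.0594) or sg1 replicate 3 (0.0903) and in sg2 without sg2 replicate 3 (0.0618). Skp2 lost its call in sg1 without sgControl replicate 1 (limma adjusted p = 0.0906), sgControl replicate 2 (0.119), sg1 replicate 1 (0.0657) or sg1 replicate 2 (0.0825). The lists of 13 reported target genes, 6 SKI and DACH genes and 20 AT-hook genes had 0 members in the table.

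Likeness to Setbp1 was measured over the 4 line means of log2(value + 1), each gene centred on its own mean, as the root mean square difference from Setbp1. The median over 981 genes was 1.66, and 10 genes were under 1. Closest was Col24a1, a fibrillar collagen chain, at 0.27. Col24a1 had 62.9, 47.2 and 96.3 normalized counts in sgControl, 36.1, 34.7 and 32.8 in sg3, 9.40, 3.98 and 6.10 in sg2, and 3.19, 1.94 and 6.63 in sg1. Its means followed the order of Setbp1, but the sg1 and sg2 libraries overlapped. Those libraries held at most 6 estimated reads in sg1 and 9 in sg2, where the added 1 weighs on the pattern. Col24a1 also had the highest Pearson correlation with Setbp1 over the 12 libraries, 0.96, a description in which all points share their 4 lines.

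Mbp was next at 0.57 and Ankrd6, an ankyrin repeat protein of Wnt signaling, at 0.58. Ankrd6 had 40.8 to 61.0 normalized counts in sgControl, 44.3 to 54.7 in sg3, 8.96 to 13.9 in sg2 and 6.63 to 9.70 in sg1. Ankrd6 was thus low in sg1 and sg2, and its sg3 values lay within the control range. The remaining 5 of the 8 closest genes were Zfp704, Gm15910, Erfe, Zfp518b and Slc16a6, at 0.82 to 0.98, and none of these kept the order of the lines without overlap. Zfp704 and Zfp518b, both zinc finger genes, were lower in sg3 than in sg2. Zfp704 had 239.3 to 255.5 normalized counts in sgControl, 99.4 to 122.0 in sg3, 127.5 to 147.4 in sg2 and 22.7 to 42.0 in sg1.

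The 3 genes closest to the mirror image of Setbp1 were Mcpt8, a mast cell protease gene, at 0.61, Mdfi, an inhibitor of MyoD family factors, at 0.62 and Mctp1, a C2 domain membrane protein, at 0.70. Mdfi had 15.3 to 19.7 normalized counts in sgControl, 21.9 to 36.6 in sg3, 48.1 to 53.8 in sg2 and 99.95 to 124.9 in sg1. Its lines stood in the reverse order without overlap, and the share of genes that do so was not counted. Mcpt8 had 3.63 to 6.88 normalized counts in sgControl, 9.12 to 10.6 in sg3, 23.9 to 28.8 in sg2 and 29.1 to 39.8 in sg1, also without overlap. The sgControl libraries held at most 7 estimated reads for Mcpt8 and 6 for Mctp1.

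**Figure D4:**
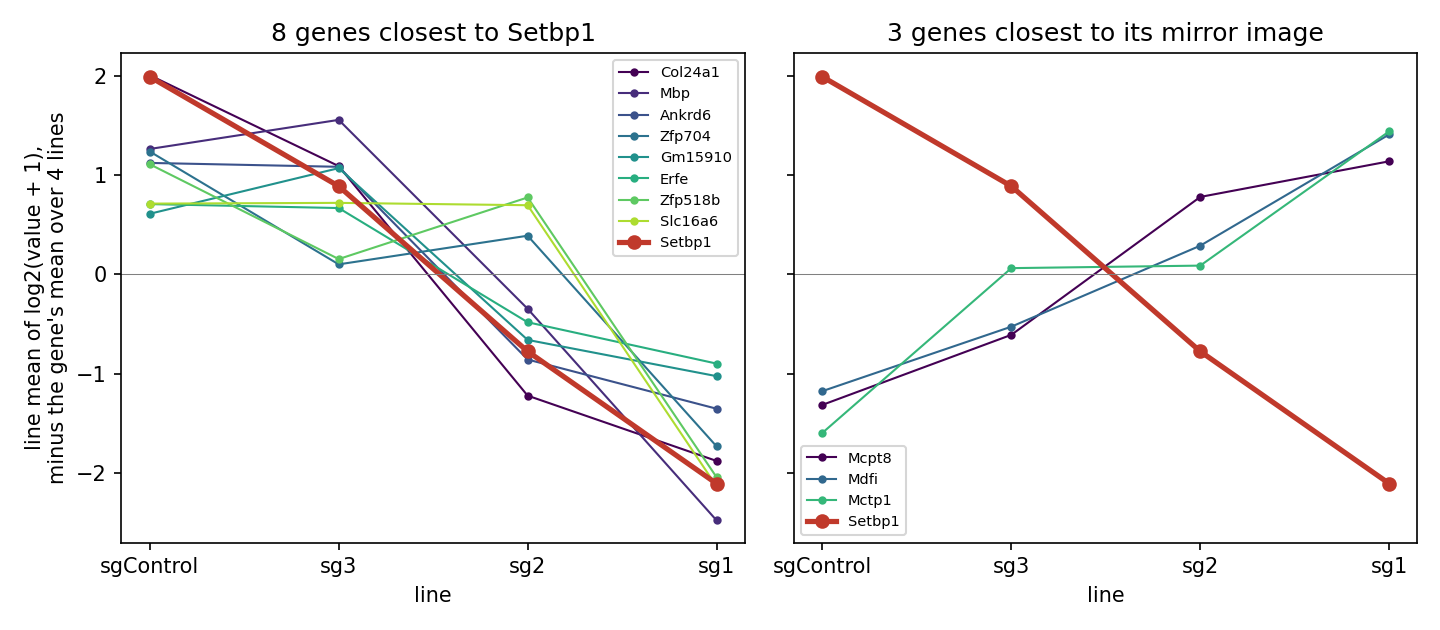
Line means of log2(value + 1) minus each gene's mean over the 4 lines (y axis), by line (x axis), for Setbp1 in red with the 8 closest genes (left) and the 3 genes closest to its mirror image (right). Col24a1 follows Setbp1 most closely, at a root mean square difference of 0.27, and Mdfi rises as Setbp1 falls.

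Markers of cell types were looked up among the deposited genes. The table holds genes already chosen for a change, so a marker that is absent may still be expressed. Absent markers therefore cannot check the labelled cell type. Of 25 epithelial markers 4 were in the table, and the keratin genes Krt8 and Krt18 were present in every library at 4282 to 14087 normalized counts. The summed level of the 4 epithelial markers was 12354 to 12825 in sgControl, 9465 to 10701 in sg3, 12025 to 12354 in sg2 and 23027 to 25325 in sg1. That sum is carried by Krt8 and Krt18. Krt19 ran from 422.6 to 551.0 in sgControl, 160.6 to 218.5 in sg3, 365.1 to 421.2 in sg2 and 542.5 to 677.9 in sg1, and Cgn, the gene of the tight junction protein cingulin, from 39.3 to 50.8, 2.74 to 4.66, 19.2 to 25.1 and 90.1 to 110.2 in the same order. As deposited, all 4 were called higher in sg1 and lower in sg3, and 2 were called lower in sg2, where 50.1% of all deposited genes were called higher in sg1, 33.4% lower in sg3 and 29.4% lower in sg2. Cd68, the 1 of 15 immune markers in the table, had 102.5 to 154.4 in sgControl, 138.5 to 158.8 in sg3, 154.2 to 169.3 in sg2 and 282.8 to 326.8 in sg1, while 10 fibroblast and 8 endothelial markers had 0 members in the table. The part of these differences between lines in the Setbp1 levels was not tested.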

How the data were processed

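RNA was taken from triplicate dishes of each line and made into stranded total RNA libraries, per the labels. The authors deposited normalized values (unit, signal), which are estimated counts over a library's size factor. The evidence is in the numbers themselves: 79.2% to 84.6% of the values under 100 reads were whole multiples of 1 step within 0.05 reads. The submitters' processing notes name STAR 2.7.8a, Partek and DESeq2. The mouse build, annotation and counting method are not given in the sources used here. Column sums of 2069298 to 2713951 cover 982 genes and are not library depths, which are unknown. Size factors of 0.859 to 1.15 moved all genes of a library together. Of 982 identifiers, 972 matched a symbol. No replicate pair was a duplicate (chi-square per degree of freedom at least 12.9).

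Values were analysed as log2(value + 1) with limma 3.58.1 (R 4.3.3), using lmFit and eBayes with an intensity trend and robust estimates, 4 groups in 1 fit, and Benjamini-Hochberg adjustment over 982 genes (two-sided, threshold 0.05). The fit was tested on simulated data. Genes named are Setbp1, the 8 most alike and 3 most opposite in pattern, 3 deposited neighbours on each side and list members in the table; other names were chosen after their values were seen. Setbp1, the lists and the tests were chosen with earlier results of these data known. Replicate numbers correlated over 0.1 in all 3 pairs for sgControl with sg1 and with sg2 (11 of 18 same-number pairs over all groups, 3 of 36 others), and for no pair of edited lines. Alternatives covered scaling, pseudocount, a filter, the fit, a replicate block and leaving out each library.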

Additional observations from a re-analysis of the deposited data

Results flagged for a closer look

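The effect of the edited lines against sgControl differed among them in a test of the difference itself for 10 of 11 genes tested, in a table where 75.3% of genes did so. For Setbp1 the limma adjusted p was 1.89e-07, with log2 differences from sgControl of -4.09, -2.76 and -1.10 in sg1, sg2 and sg3. Among the chromosome 18 neighbours it was 3.99e-11 for Mbp, 9.07e-08 for Dynap, 0.000729 for Smad2, 0.00860 for Tshz1, 0.0213 for Atp5a1 and 0.0391 for Cyb5a (limma). In the lists linked to SETBP1 it was 0.00121 for Set, 0.00367 for Skp2, from the general SCF list, and 0.00932 for Wdr5 (limma). The calls of Smad2, Tshz1, Cyb5a, Skp2 and Wdr5 depend on the scaling. After scaling to the table total their limma adjusted p was 0.328, 0.196, 0.676, 0.0535 and 0.113. With median-of-ratios scaling Tshz1 and Cyb5a also lost the call (limma adjusted p = 0.277 and 0.472), as they did with the table total less its highest feature (0.204 and 0.550). Setbp1, Mbp, Dynap, Atp5a1 and Set kept it under all 3 scalings. With 1 line per guide, a guide cannot be told apart from its clone.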

How the results depend on the processing

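Setbp1 kept its direction in each comparison and its call in all 84 recomputed tests between edited lines. Leaving out 1 library gave log2 differences of 0.93 to 1.57 between sg2 and sg1, 1.51 to 1.83 between sg3 and sg2 and 2.59 to 3.23 between sg3 and sg1 (highest limma adjusted p 0.00475, 0.00162 and 2.00e-06). The other settings gave 1.04 to 1.44, 1.52 to 1.76 and 2.56 to 3.14. Against sgControl the sg1 value moved most, to -3.62 with a pseudocount of 5, which shrinks low values by construction. With a replicate block the limma adjusted p between sg2 and sg1 was 0.000170, between sg3 and sg2 4.31e-05 and between sg3 and sg1 1.49e-08, and no neighbour or list member lost a call. With the block Mbd3 gained one between sg3 and sg1 (-0.12, adjusted p from 0.0657 to 0.0207) and in the test of all 3 edited lines (0.141 to 0.0476), and Atp5a1 between sg2 and sg1 (0.09, 0.115 to 0.0435). Counts of called genes stayed within 1.5 times. Of the 8 genes most alike to Setbp1, 1 was shared when likeness was the Pearson correlation over 12 libraries and 4 with a filter at a mean of 50, which removes low genes. Other scalings moved the median of all genes by up to -0.21 in sg1 against sgControl. Tshz1 between sg3 and sg1 turned from -0.14 to 0.0103 with median-of-ratios scaling and to 0.0298 with the table total less its highest feature. Of 777 recomputed values of neighbours and list members called as deposited, 701 kept their call, 74 lost it and 2 turned direction. The sg1 level of Setbp1 rests on 28 reads and on dishes that varied by 45.0% (CV).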
